A study of Rattus norvegicus with 35 samples.

Results

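Spp1 encodes osteopontin, a secreted phosphorylated glycoprotein, and its level was followed here in the lungs of rats given carbon nanotubes. The gene was taken through the non-control probes named Spp1 on the array, and it is 1 of 24468 genes that passed the filter on dim probes, out of 34766 gene names. Spp1 was selected on its values in these same groups. Its levels and differences are therefore given as a description, with no test, and nothing is supported with them.

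Total RNA of 35 female Sprague Dawley rats, taken from the lung's accessory lobe, was hybridised to Agilent 1-colour arrays, 1 array per rat. Both test materials, Mitsui-7 and NM-403, belong to the multi-walled carbon nanotubes. The rats were 12 weeks old when weekly intratracheal instillations began, and these went on for 4 weeks with 0.25 mg per rat. The labels do not say whether that dose is per instillation or in all. The titles place the samples at day 3, which the labels count from the exposure. The 6 groups were p53het rats given Mitsui-7 (n = 6), p53het rats given NM-403 (n = 5), p53het controls (n = 6), WT rats given Mitsui-7 (n = 6), WT rats given NM-403 (n = 6) and WT controls (n = 6). The p53het rats are a genetically modified heterozygous line, called here by its label, and both control groups received the vehicle Pluronic. How the line was altered is not stated in the labels.

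Osteopontin is a multifunctional protein of the bone matrix and a cytokine-like product of macrophages, T cells and epithelial cells. It binds integrins through an arginine-glycine-aspartate motif, binds a further set of integrins through a neighbouring site that thrombin exposes, and is a ligand of CD44. In the lung it is known from work in mice and patients as a product of macrophages in fibrosis, granuloma and particle-induced inflammation.

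The array measured Spp1 with 1 probe, A_44_P491796, designed on transcript NM_012881 and printed in 10 spots per array. Its 60 bases are shown because every Spp1 value below rests on them, in lower case since no part is singled out.
Spp1 probe: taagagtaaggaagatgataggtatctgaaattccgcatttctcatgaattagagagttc
The scanner files place it at chr14:6422382-6422441 on the minus strand. The file header names build rn4, and whether the coordinate column follows that build was not checked. G and C make up 35.0% of the probe. Spp1 lies on chromosome 14 in RefSeq's GRCr8 annotation as well, at chr14:5613569-5620695. Of the 350 Spp1 spots on the 35 arrays, 9 were marked as outliers and left out. All of the rest were well above background, and none was saturated. The SD over the spots of an array was 0.0217 to 0.137 on the log2 scale, with a median of 0.0734, against a pooled SD between rats of a group of 0.532. On the array with the lowest Spp1, the signal was 5.47 times the lowest signal that was well above background there.

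Over all arrays, 66.1 to 86.4% of spots were well above background, and the 75th percentile of the log2 signal was 9.59 to 11. Levels below are log2 signal minus the 75th percentile of the array, so a level of 0 equals that percentile. The lung markers Sftpc, Sftpb, Sftpa1, Ager, Scgb1a1 and Cldn5 were all measured, and their summed linear level was 258 to 406 times the percentile signal. The arrays came from 5 slides, each scanned on 1 of 3 days per the file headers, and every slide carried arrays of 5 or 6 of the groups.

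Spp1 was low in control lungs, intermediate after NM-403 and high after Mitsui-7, in p53het and in WT rats alike. In p53het rats given Mitsui-7 the 6 levels ran from 2.89 to 3.73 with a median of 3.60. In p53het rats given NM-403 the 5 levels were 1.03, 1.21, 0.95, 1.05 and 1.26, and in p53het controls the 6 levels ran from -4.62 to -2.13 with a median of -2.94. No array of these 3 groups reached into the range of another. WT rats gave the same order. The lowest, median and highest levels were 2.90, 3.62 and 3.86 in WT rats given Mitsui-7, 1.06, 1.30 and 1.49 in WT rats given NM-403, and -4.15, -2.68 and -1.97 in WT controls. In unscaled signal, the arrays of rats given Mitsui-7 read 8360 to 25200, those of rats given NM-403 read 1720 to 4870, and those of controls read 46.7 to 470. In bulk lung, more cells of a type and more RNA per cell cannot be told apart.

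**Figure D1:**
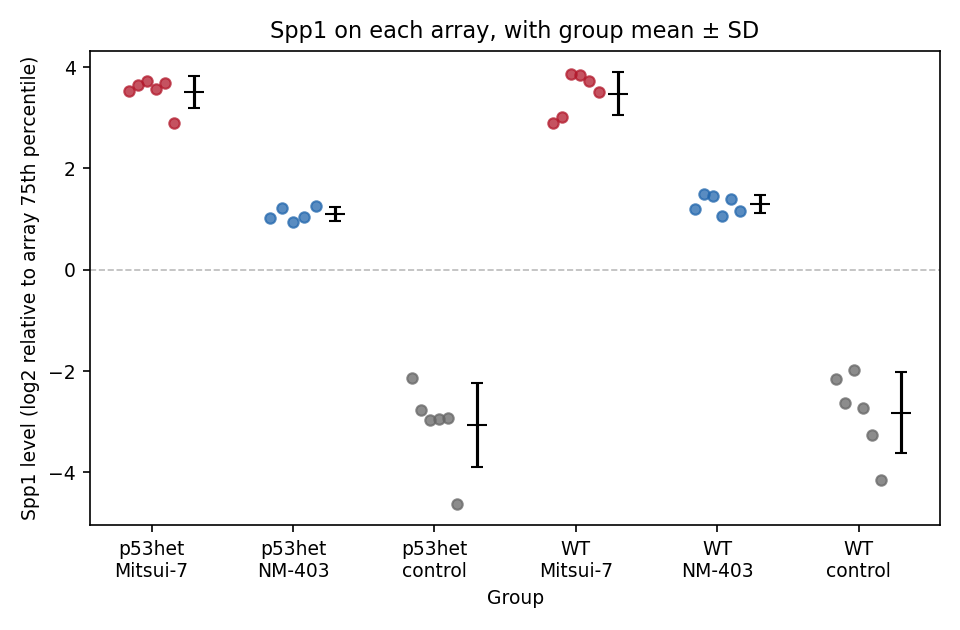
Spp1 level on each of the 35 arrays (log2 relative to the 75th percentile of the array), by group. Points are rats, and bars give the group mean and SD. The rats given Mitsui-7 lie between 2.89 and 3.86, those given NM-403 between 0.95 and 1.49, and the controls between -4.62 and -1.97.

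The group means were 3.50 ± 0.31 in p53het rats given Mitsui-7, 1.1 ± 0.13 in p53het rats given NM-403 and -3.06 ± 0.83 in p53het controls (SD, n = 6, 5 and 6). They were 3.47 ± 0.42 in WT rats given Mitsui-7, 1.29 ± 0.18 in WT rats given NM-403 and -2.82 ± 0.80 in WT controls (SD, n = 6 each). From high to low, p53het and WT rats given Mitsui-7 came first, and their ranges overlapped. WT and p53het rats given NM-403 followed, overlapping with each other, and WT and p53het controls came last, also overlapping. The steps from Mitsui-7 to NM-403 and from NM-403 to the controls had no overlap. The spread also differed between groups. The highest rat of a group exceeded the lowest by 1.24 to 1.95 times in the exposed groups, against 5.64 times in p53het controls and 4.53 times in WT controls.

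Against controls, Spp1 was higher by 6.56 ± 0.30 in p53het rats and 6.29 ± 0.30 in WT rats given Mitsui-7 (log2 difference ± SE of limma's fit), which are 94.5-fold and 78.3-fold. It was higher by 4.16 ± 0.31 in p53het rats and 4.11 ± 0.30 in WT rats given NM-403, or 17.9-fold and 17.3-fold. In p53het rats the lowest Mitsui-7 array stood 32.4-fold above the highest control array, and the lowest NM-403 array 8.41-fold above it. In WT rats those gaps were 29.1-fold for Mitsui-7 and 8.17-fold for NM-403. In each of these 4 comparisons Spp1 had the highest log2 difference of the 24468 genes.

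Mitsui-7 and NM-403 were given at the same dose and time. Spp1 was higher after Mitsui-7 than after NM-403 by 2.40 ± 0.31 in p53het rats and 2.18 ± 0.30 in WT rats (log2), or 5.29-fold and 4.53-fold, and the ranges did not overlap. Between the nanotubes Spp1 was not at the head of the list: it stood in place 29 among the rises in p53het rats and in place 69 in WT rats.

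The differences had the same sign within every slide that held both groups. For Mitsui-7 against control they were 6.16 to 7.11 over 5 slides in p53het rats and 5.17 to 7.76 over 4 slides in WT rats. For NM-403 against control they were 3.82 to 4.61 over 4 slides in p53het rats and 3.39 to 5.30 over 5 slides in WT rats. The step from Mitsui-7 to NM-403 was 2.17 to 2.70 in p53het rats and 1.79 to 2.63 in WT rats, over 4 slides each.

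**Figure D2:**
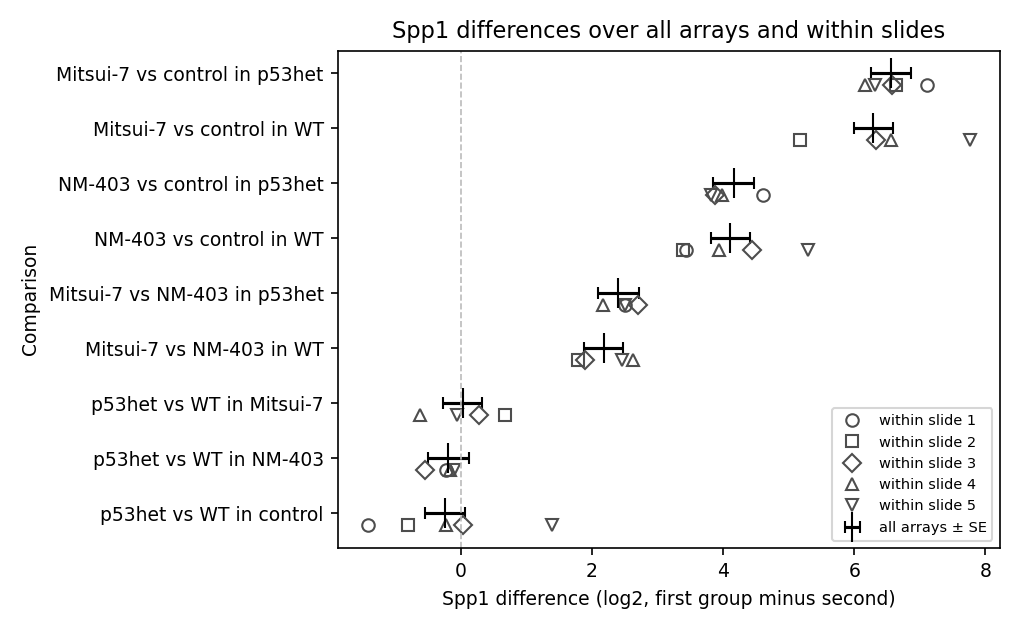
Spp1 differences (log2, first group minus second) over all arrays, as black bars with the SE, and within each slide that held both groups, as open symbols. Every symbol of the 6 upper comparisons lies to the right of 0, while those of p53het against WT lie on both sides of 0 in Mitsui-7 rats and controls.

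Spp1 in p53het and WT rats of the same exposure overlapped. The p53het rats differed from WT rats by 0.03 ± 0.30 after Mitsui-7, by -0.19 ± 0.31 after NM-403 and by -0.24 ± 0.30 in controls, and the ranges overlapped in all 3 pairs. Within slides, the difference ran from -0.63 to 0.67 after Mitsui-7 and was positive on 2 of 4 slides. After NM-403 it ran from -0.55 to -0.1, below 0 on all 4 slides, and in controls from -1.41 to 1.39, positive on 2 of 5 slides. The response itself differed between genotypes by 0.27 ± 0.42 for Mitsui-7 and 0.05 ± 0.43 for NM-403 (p53het minus WT). Each of these 5 values was smaller than its SE, which does not show that the genotypes are alike.

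In p53het rats 2 arrays stood low. Control replicate 6 read -4.62, and without it the p53het control mean is -2.74 ± 0.35 (n = 5). In p53het rats given Mitsui-7, replicate 6 read 2.89 while the other 5 lay between 3.52 and 3.73, and without it the mean is 3.63 ± 0.09. Leaving out any 1 array moved the difference from control to between 6.25 and 6.75 in p53het and between 6.02 and 6.46 in WT rats given Mitsui-7. For NM-403 these ranges were 3.84 to 4.34 in p53het and 3.85 to 4.28 in WT rats.

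Spp1 sits in a cluster of genes for the SIBLING proteins (small integrin-binding ligand, N-linked glycoproteins), acidic proteins of bone and dentin. Ibsp (bone sialoprotein), Dmp1 (dentin matrix protein) and Mepe, which follow Spp1 on its chromosome in GRCr8, did not pass the filter on dim probes. Ibsp and Dmp1 were each well above background on 1 of 6 arrays of WT rats given Mitsui-7, and Dmp1 also on 1 of 6 p53het control arrays. Dspp (dentin sialophosphoprotein), the remaining member, was measured and passed no test, with differences of -0.15 in p53het and 0.16 in WT rats given Mitsui-7 and -0.55 in p53het and -0.12 in WT rats given NM-403. Of the 4 measured genes nearest on each side, Pkd2 (polycystin 2) is the direct neighbour. Pkd2 fell by 0.32 in p53het rats given Mitsui-7 (limma, adjusted p = 0.0316), a call that was lost on leaving out 1 array in 6 of 12 cases. The call was also lost in the authors' processed values, with quantile normalization, with arrays centred on their medians and without the filter on dim probes. Its differences from control were -0.28 in WT rats given Mitsui-7, -0.21 in p53het rats given NM-403 and -0.28 in WT rats given NM-403, not called. Sparcl1, a matrix glycoprotein related to SPARC, fell by 0.58 in p53het and 0.43 in WT rats given Mitsui-7 (adjusted p = 0.0068 and 0.0418), and the WT call was lost in 7 of 12 fits without 1 array and 2 other settings (up to 0.122). Abcg3l3, Zfp951, Abcg3l1, Nudt9 and Hsd17b11, the other measured neighbours beside Dspp, passed no test against control. Of these 8 neighbours 0 were called higher after either nanotube. Among all genes, 5.16% in p53het and 8.95% in WT rats given Mitsui-7 were called higher, and 1.28% and 2.28% after NM-403. With shares this small, 0 of 8 genes says little about the locus.

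For all genes other than Spp1, changes were tested with limma over the 24468 genes, and a gene is called at an adjusted p under 0.05. The share of all genes called higher was 5.16% in p53het and 8.95% in WT rats given Mitsui-7 and 1.28% in p53het and 2.28% in WT rats given NM-403. The share called lower was 6.49% in p53het and 4.8% in WT rats given Mitsui-7 and 0.241% in p53het and 0.854% in WT rats given NM-403. Mitsui-7 against NM-403 gave 1.04% higher and 0.315% lower in p53het rats and 3% higher and 0.474% lower in WT rats. The higher share of the calls depended on the scaling: with each array centred on its median it was 52.7% in place of 44.3% for p53het rats given Mitsui-7, 46.3% in place of 65.1% for WT rats given Mitsui-7 and 70.1% in place of 86.4% for Mitsui-7 against NM-403 in WT rats. With quantile normalization the share was 54.8% for p53het and 49.6% for WT rats given Mitsui-7 and 73% between the nanotubes in WT rats. In the authors' processed values, which hold fewer genes, it was 52.8% for p53het and 36.9% for WT rats given Mitsui-7 and 62.9% between the nanotubes in WT rats. The share was 62.1% in place of 72.8% for NM-403 in WT rats in the authors' values, and 70.1% in place of 84.1% for NM-403 in p53het rats under another background correction.

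Few genes were called between the genotypes, which does not show that few differ. Between p53het and WT rats, limma called 0.00817% of genes after Mitsui-7 (2 genes, Fam25a and Ubxn11), 0% after NM-403 and 0% in controls. An unadjusted p under 0.05 was found for 1426 genes after Mitsui-7, 1027 after NM-403 and 482 in controls. The interaction of genotype with exposure gave 0% for Mitsui-7 and 0% for NM-403, with 819 genes for Mitsui-7 and 410 for NM-403 at an unadjusted p under 0.05. By chance alone a share of 0.05 of the 24468 genes would fall under that p. In this fit, which leaves the slide out, the count of 1426 lies somewhat above that share and the other 4 counts lie below it. These counts are not read as differences between the genotypes. With the slide as a block, an alternative added after seeing the data, 17 genes (fixed block) or 41 genes (random block) were called after Mitsui-7, and 0 in the other 4 comparisons of genotype. The counts at an unadjusted p under 0.05 then rose to 2340 (fixed) or 2252 (random) after Mitsui-7. For the interaction with Mitsui-7 they rose to 1794 or 1625, so both lay above the chance share. In the remaining comparisons they were 763 to 1141, below it. The counts thus depend on the slide block. Among the 215 genes of the lists below that were tested, 0 were called in any of these 5 comparisons, with or without the slide as a block. Without the block their lowest adjusted p were 0.153 for genotype after Mitsui-7, 0.74 after NM-403, 1 in controls, and 0.998 for the interaction with Mitsui-7 and 0.985 for that with NM-403. With the fixed or random block their lowest adjusted p were 0.0954 or 0.0645 for genotype after Mitsui-7 and 0.301 or 0.273 for the interaction with Mitsui-7.

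The receptors of osteopontin changed by small amounts beside the ligand. Of 11 measured receptor genes, 3 rose and 2 fell after Mitsui-7 in p53het rats and in WT rats alike, while after NM-403 0 rose, and 0 fell in p53het rats and 2 in WT rats. Over all genes, 11.7% in p53het and 13.7% in WT rats given Mitsui-7 were called in either direction, a smaller share than among the receptors. After NM-403 the share over all genes was 1.52% in p53het and 3.13% in WT rats. The median difference was -0.05 in p53het and 0.04 in WT rats given Mitsui-7 and -0.07 in p53het and -0.01 in WT rats given NM-403. Over all genes the medians were -0.03 in p53het and 0.04 in WT rats given Mitsui-7 and -0.07 in p53het and 0 in WT rats given NM-403, so the receptor medians lay near them. These medians do not show the rises and falls counted above.

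Cd44, the hyaluronan receptor that also binds osteopontin, rose after Mitsui-7. Its levels ran from 1.31 to 1.94 in p53het rats given Mitsui-7 and from 1.11 to 1.22 in p53het controls, with no overlap. In WT rats they ran from 1.32 to 1.96 after Mitsui-7 and from 0.85 to 1.23 in controls. The differences were 0.51 ± 0.09 in p53het and 0.46 ± 0.09 in WT rats (adjusted p = 0.0003 and 0.00061), and all 3 Cd44 probes gave the same sign. After NM-403 Cd44 differed by 0.19 in p53het and 0.23 in WT rats and was not called, although no NM-403 array fell into the control range.

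Among the integrins that read the arginine-glycine-aspartate motif, Itgav, the shared alpha v chain, rose by 0.40 ± 0.08 in p53het and in WT rats given Mitsui-7 (adjusted p = 0.0015 and 0.0013). It was also higher after Mitsui-7 than after NM-403, by 0.45 in p53het and 0.41 in WT rats (adjusted p = 0.0032 and 0.00267), and the WT call was lost when arrays were centred on their medians (0.0746). Itgb5, the beta 5 partner of alpha v, fell by 0.45 in p53het rats given Mitsui-7 (adjusted p = 0.0036) and by 0.31 ± 0.11 in WT rats (0.0487). The WT call did not hold in 9 of 12 fits that left out 1 array (adjusted p up to 0.154). In WT rats given NM-403 Itgb5 fell by 0.44 (adjusted p = 0.0129), a call lost in 2 of 12 such fits. Itgb1, Itgb3, Itgb6, Itga5 and Itga8 were called in no comparison, with differences from control between -0.39 and 0.20.

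Of the receptors for the thrombin-exposed site, Itga4, the alpha 4 chain of leukocyte integrins, and Itga9 moved in opposite directions. Itga4 rose by 0.69 ± 0.11 in WT rats given Mitsui-7 (adjusted p = 2.7e-05), where its levels were -1.79 to -1.48 after Mitsui-7 and -2.53 to -2.10 in controls. In p53het rats it rose by 0.33 (adjusted p = 0.0434), with overlap, and leaving out 1 array ended that call in 8 of 12 cases (adjusted p up to 0.12). Itga9 fell by 0.47 ± 0.09 in WT rats given Mitsui-7 (adjusted p = 0.00046) and by 0.39 in WT rats given NM-403 (0.0119), and by 0.28 in p53het rats given Mitsui-7 (0.0401). The p53het call was lost in 9 of 12 fits without 1 array (up to 0.15) and in 5 of 10 other settings, the authors' processed values among them. The NM-403 call was lost when arrays were centred on their medians (0.0513). Itgb7 was not called.

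**Figure D3:**
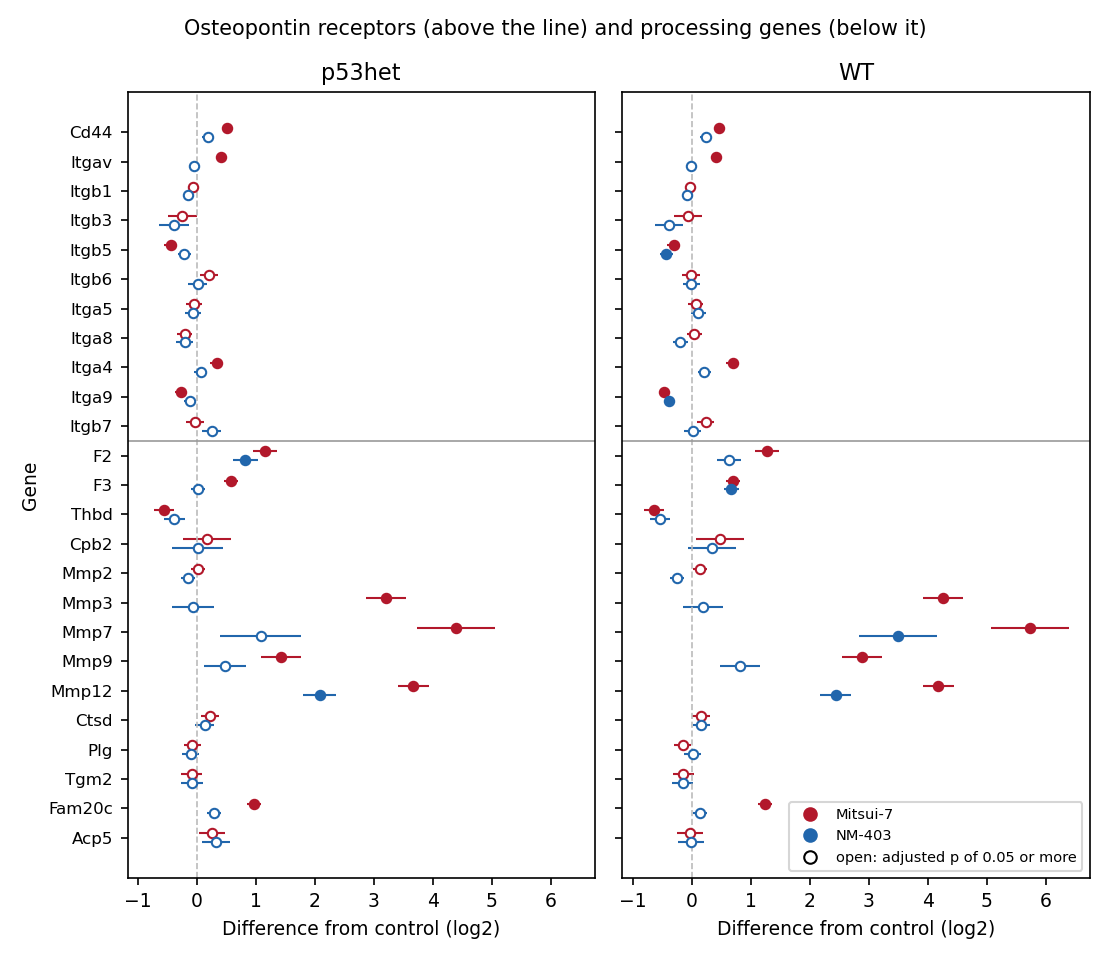
Differences from control (log2, points with the SE) of the 11 osteopontin receptor genes, above the line, and 14 processing genes, below it. The products of the 14 cut, phosphorylate, dephosphorylate or crosslink osteopontin, or act around thrombin (F3 and Thbd). Red is Mitsui-7 and blue NM-403, with p53het rats on the left and WT rats on the right, and open points were not called. The receptors lie between -0.47 and 0.69, while Mmp3, Mmp7, Mmp9 and Mmp12 lie far to the right after Mitsui-7.

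Genes of the processing list, whose products act on osteopontin or around thrombin, changed more. Of 14 measured, 7 rose and 1 fell after Mitsui-7 in each genotype, 2 rose in p53het rats and 3 in WT rats given NM-403, and 0 fell after NM-403. The shares of all genes called in either direction were 11.7% in p53het and 13.7% in WT rats given Mitsui-7. After NM-403 they were 1.52% in p53het and 3.13% in WT rats. The median difference was 0.41 in p53het and 0.59 in WT rats given Mitsui-7 and 0.07 in p53het and 0.17 in WT rats given NM-403. The authors' processed values hold 7 of the 14, and F3, Mmp12 and Thbd, the 3 of these 7 called above, were also called there after Mitsui-7 in each genotype.

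The matrix metalloproteinases led. Mmp12, macrophage elastase, had levels of 0.14 to 0.87 in p53het rats given Mitsui-7, -1.80 to -0.86 in those given NM-403 and -4.07 to -2.78 in p53het controls. In WT rats its levels were -0.88 to 1.27 after Mitsui-7, -1.69 to -0.76 after NM-403 and -4.14 to -3.16 in controls. Both nanotubes put every rat above every control, and in WT rats the lowest Mitsui-7 array lay inside the NM-403 range. Mmp12 rose by 3.67 in p53het and 4.18 ± 0.26 in WT rats given Mitsui-7 (12.8-fold and 18.1-fold, adjusted p = 1e-11 and 6.6e-13), and by 2.08 in p53het and 2.44 in WT rats given NM-403 (adjusted p = 3.4e-05 and 7.8e-07).

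Mmp7 (matrilysin), which cuts osteopontin beside its integrin sites, rose by 4.40 in p53het and 5.73 ± 0.66 in WT rats given Mitsui-7 (adjusted p = 2.3e-05 and 1.6e-07). It rose by 3.50 in WT rats given NM-403 (adjusted p = 0.0015) and differed by 1.08 in p53het rats given NM-403, where it was not called. Control values of Mmp7 are the weak side of these differences, since it was well above background on 4 of 6 p53het and 2 of 6 WT control arrays. Mmp3 (stromelysin 1), which also cuts osteopontin, was not well above background on any control array nor on any of WT rats given NM-403, so only bounds can be given. Mmp3 was at least 3.17-fold higher in p53het and at least 6.03-fold higher in WT rats given Mitsui-7 (adjusted p = 4.08e-08 and 7.18e-11). Mmp9 (gelatinase B) rose by 1.42 in p53het and 2.88 ± 0.34 in WT rats given Mitsui-7 (adjusted p = 0.0051 and 2.7e-07), and its p53het value was 0.34 and not called under the other background correction. Mmp2 (gelatinase A) was not called.

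Genes around thrombin, which cuts osteopontin, moved as well. F2, prothrombin itself, rose by 1.15 in p53het and 1.27 in WT rats given Mitsui-7 (adjusted p = 0.00013 and 2.2e-05) and by 0.82 in p53het rats given NM-403 (0.0299, lost in 7 of 11 fits without 1 array). F3, tissue factor, the starter of coagulation, rose by 0.57 in p53het and 0.69 in WT rats given Mitsui-7 (adjusted p = 0.0011 and 6.9e-05) and by 0.67 in WT rats given NM-403, with a difference of 0.01 in p53het rats. Thbd, thrombomodulin, an endothelial thrombin receptor, fell by 0.56 in p53het and 0.65 in WT rats given Mitsui-7 (adjusted p = 0.025 and 0.0081), its ranges overlapped with those of controls, and the p53het call was lost in 4 of 12 fits without 1 array (up to 0.0802). Cpb2, the carboxypeptidase that trims thrombin-cut osteopontin, was not called.

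Fam20c, the secretory kinase that phosphorylates SIBLING proteins, rose after Mitsui-7. Its levels were -2.53 to -2.19 in p53het rats given Mitsui-7, -3.16 to -2.83 in those given NM-403 and -3.39 to -3.09 in p53het controls. In WT rats they were -2.29 to -1.51 after Mitsui-7, -3.31 to -2.82 after NM-403 and -3.36 to -2.83 in controls. The difference from control was 0.97 in p53het and 1.24 ± 0.12 in WT rats given Mitsui-7 (adjusted p = 6.4e-07 and 3.8e-09) and 0.28 in p53het and 0.13 in WT rats given NM-403, not called. Between the nanotubes Fam20c was higher after Mitsui-7 by 0.68 in p53het and 1.11 in WT rats (adjusted p = 0.0011 and 1.5e-07). Acp5, the acid phosphatase that removes phosphate from osteopontin, Ctsd and Plg, whose products also cut it, and Tgm2, which crosslinks it, were called in no comparison with control.

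Between the nanotubes, 5 of the 14 were higher after Mitsui-7 in p53het rats (F3, Mmp3, Mmp7, Mmp12 and Fam20c) and 4 in WT rats (Mmp3, Mmp9, Mmp12 and Fam20c). Mmp3 was at least 5.03-fold higher in WT rats. Of the 11 receptors, 1 was higher in p53het rats (Itgav) and 2 in WT rats (Itgav and Itga4). Among all genes, 1.04% in p53het and 3% in WT rats were called higher after Mitsui-7 than after NM-403. Mmp12 was higher by 1.60 in p53het and 1.73 in WT rats (adjusted p = 0.00065 and 6.1e-05), and Mmp7 by 3.32 in p53het rats (0.0059) and 2.23 in WT rats, not called.

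Regulators known to act on the Spp1 promoter in other systems were called in part. Of 19 measured, 2 rose and 2 fell in p53het rats and 3 rose and 1 fell in WT rats given Mitsui-7, while 0 rose in p53het and 2 in WT rats given NM-403. Over all genes, 11.7% in p53het and 13.7% in WT rats given Mitsui-7 were called in either direction, and 1.52% in p53het and 3.13% in WT rats given NM-403. The share after Mitsui-7 was larger among the 19, a difference that rests on few genes. Fosl1, an AP-1 subunit, rose by 2.25 in p53het and 2.00 ± 0.44 in WT rats given Mitsui-7 (adjusted p = 0.00063 and 0.0017), from probes well above background on 2 of 6 p53het and 4 of 6 WT control arrays. Runx2, the osteoblast factor that drives Spp1 in bone, rose by 0.58 in WT rats given Mitsui-7 (adjusted p = 0.0075) and differed by 0.43 in p53het rats. Spi1 (PU.1), a myeloid Ets factor, rose by 0.59 in WT rats given Mitsui-7 and by 0.48 in those given NM-403 (adjusted p = 0.0024 and 0.042), and the NM-403 call was lost in 9 of 12 fits without 1 array. Nr3c1, the glucocorticoid receptor, fell by 0.36 in p53het and 0.35 in WT rats given Mitsui-7 (adjusted p = 0.0014 and 0.0015). Jun fell by 0.41 and Fosl2 rose by 0.42 in p53het rats given Mitsui-7 (0.0438 and 0.016), and Myc rose by 0.43 in WT rats given NM-403 (0.0061). The call of Jun was lost in 8 of 12 fits without 1 array and in 7 of 10 other settings, the authors' processed values among them. That of Fosl2 was lost in 2 of 12 such fits and in 2 of 9 other settings. Between the nanotubes 0 of 19 were called.

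The 250 bases before the Spp1 start in RefSeq's promoter table (GRCr8, chr14:5619805-5620054, minus strand) are shown because these factors are described to act there. Capitals mark matches to 2 of the motifs searched. The RefSeq gene span reaches past this start, so other starts are annotated upstream.
Spp1 promoter: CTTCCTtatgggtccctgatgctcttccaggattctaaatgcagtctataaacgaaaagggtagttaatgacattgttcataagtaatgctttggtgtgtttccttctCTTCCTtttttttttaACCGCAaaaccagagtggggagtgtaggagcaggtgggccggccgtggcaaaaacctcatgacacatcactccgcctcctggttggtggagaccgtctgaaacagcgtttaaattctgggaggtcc
Each motif searched is spelled out here and was looked for on both strands. The Ets core AGGAAG was found at -250 and -142, each as CTTCCT, and 29.5% of 33469 promoter windows of the same length hold it. The RUNX core ACCGCA was found at -126 (5.0% of windows). The RUNX core ACCACA (14.5% of windows), the AP-1 site TGANTCA (6.3%) and the E-box CATGTG (12.1%) had no match in the window. The motifs do not overlap with each other in this window.

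Macrophage genes rose in the same lungs. A list of 28 genes described together with Spp1 in tissue macrophages had 17 higher in p53het and 19 higher in WT rats given Mitsui-7, and 3 higher in p53het and 9 higher in WT rats given NM-403, with 0 lower. The median difference was 0.56 in p53het and 0.62 in WT rats given Mitsui-7 and 0.19 in p53het and 0.27 in WT rats given NM-403. Of 20 general macrophage markers, 9 rose in p53het and 13 in WT rats given Mitsui-7 and 1 in p53het and 3 in WT rats given NM-403, with 0 lower. For both lists, the shares of all genes called higher were 5.16% in p53het and 8.95% in WT rats given Mitsui-7. After NM-403 they were 1.28% in p53het and 2.28% in WT rats. The lists share no gene with each other, and the first holds Mmp12 and Ctsd from the processing list.

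Il1rn, the interleukin 1 receptor antagonist, was called in all 4 comparisons with control. Its levels were 1.98 to 2.27 in p53het rats given Mitsui-7, 0.65 to 1.24 in those given NM-403 and -0.53 to 0.13 in p53het controls. In WT rats they were 1.49 to 2.70 after Mitsui-7, 0.76 to 1.14 after NM-403 and -0.49 to 0.14 in controls. Il1rn rose by 2.27 after Mitsui-7 in both genotypes (adjusted p = 5.6e-12 and 4.9e-12) and by 1.09 in p53het and 1.11 in WT rats given NM-403 (0.00021 and 4.7e-05). Its 3 exposures did not overlap in either genotype, as for Spp1.

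Pla2g7, a secreted phospholipase of lipid-laden macrophages, rose by 2.48 in p53het and 2.98 in WT rats given Mitsui-7 and by 1.12 in p53het and 0.85 in WT rats given NM-403. Ctsk, a cysteine protease of osteoclasts and activated macrophages, rose by 3.01 in p53het and 2.91 in WT rats given Mitsui-7 (8.07-fold and 7.51-fold) and by 1.08 in WT rats given NM-403. Trem2, a lipid-sensing receptor, rose by 1.51 in p53het and 2.22 in WT rats given Mitsui-7 and by 1.64 in WT rats given NM-403. Fn1 (fibronectin) rose by 1.08 in p53het and 1.20 in WT rats given Mitsui-7 and differed by 0.04 in p53het and -0.07 in WT rats given NM-403. Apoe (apolipoprotein E) rose by 0.67 in p53het and 1.06 in WT rats given Mitsui-7 and differed by -0.01 in p53het and 0.14 in WT rats given NM-403. Adjusted p of the called values in this paragraph were between 8.4e-12 and 0.023. Between the nanotubes, 7 of the 28 were higher after Mitsui-7 in p53het rats and 9 in WT rats, and Arg1 (arginase 1) and Chi3l1 were lower in WT rats, by 0.87 for Arg1 and 0.99 for Chi3l1. Leaving out 1 array ended the call of Chi3l1 in 5 of 12 cases, and in WT rats given NM-403 that of Ctsk in 3 of 12 and that of Pla2g7 in 2 of 12. Other calls in these counts were also weak. Over all alternatives, in p53het rats given Mitsui-7 the call of Tyrobp was lost in 14 settings and that of Cd63 in 7. In WT rats given NM-403 that of Fabp5 was lost in 10. Between the nanotubes, that of Lipa in p53het rats was lost in 11 and that of Itgax in WT rats in 10.

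**Figure D4:**
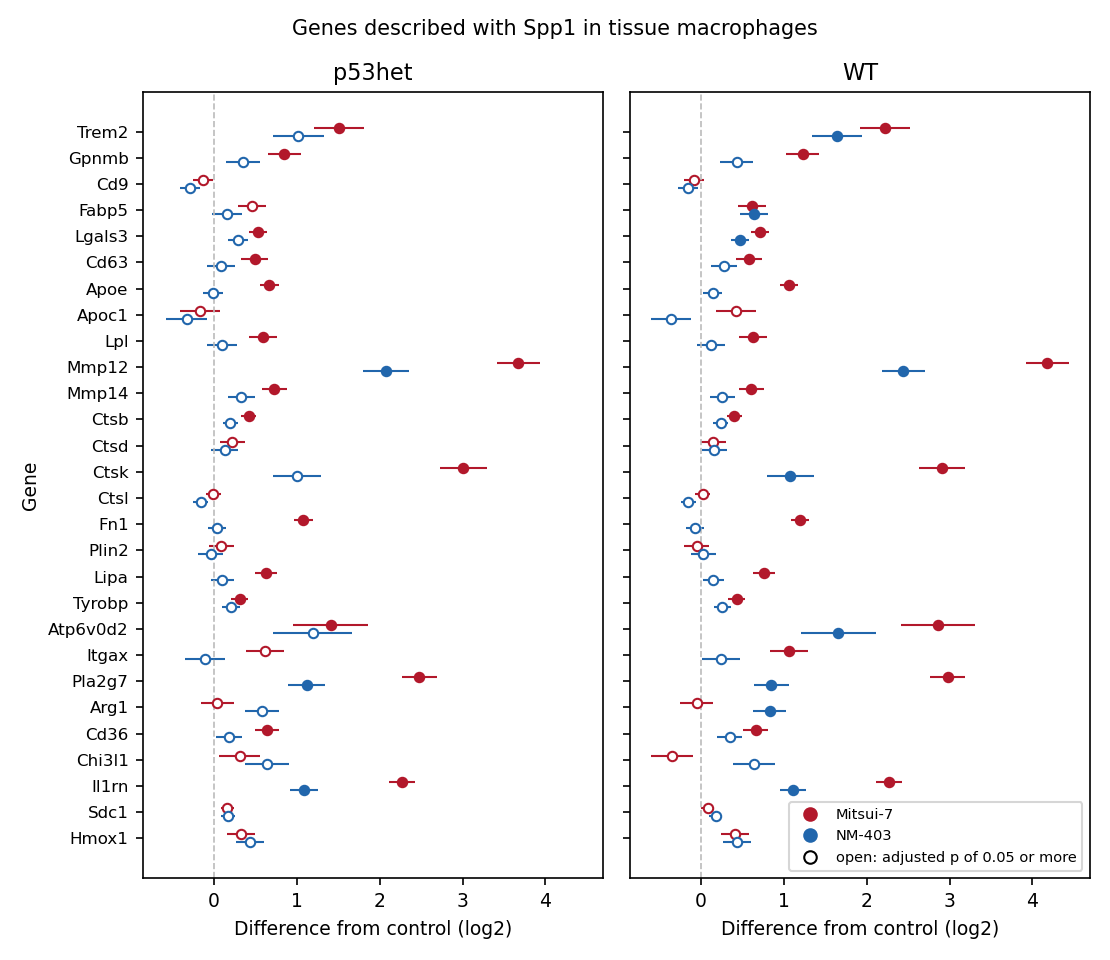
Differences from control (log2, points with the SE) of 28 genes described with Spp1 in tissue macrophages, with p53het rats on the left and WT rats on the right. Red is Mitsui-7, blue NM-403, and open points were not called. Mmp12, Ctsk, Pla2g7 and Il1rn lie between 2.27 and 4.18 with Mitsui-7 and between 0.85 and 2.44 with NM-403.

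Among the general markers, Itgam (CD11b) rose by 2.07 in p53het and 2.37 in WT rats given Mitsui-7 and by 1.04 in WT rats given NM-403, and Fabp4, a fatty acid carrier of alveolar macrophages, by 3.15 in p53het and 2.54 in WT rats given Mitsui-7. C1qb was the marker called in p53het rats given NM-403 (0.60), a call lost in 3 of 11 fits without 1 array. In WT rats given NM-403 the call of Cd14 was lost in 11 settings and that of Msr1 in 6, over all alternatives. The call of Msr1 in WT rats given Mitsui-7 was lost in 15. Csf1r, Mrc1, Cd163, Mertk and Lyz2 were called in none of the 6 exposure comparisons. The summed linear level of the 20 markers, in units of the percentile signal, was 115 to 145 after Mitsui-7, 104 to 139 after NM-403 and 93.9 to 164 in controls among p53het rats, and 103 to 141 after Mitsui-7, 102 to 140 after NM-403 and 96 to 106 in controls among WT rats. For the 28 genes it was 241 to 327 after Mitsui-7, 203 to 267 after NM-403 and 189 to 227 in controls among p53het rats, and 231 to 345 after Mitsui-7, 222 to 276 after NM-403 and 180 to 195 in controls among WT rats. These sums overlap between Mitsui-7 and NM-403, unlike Spp1, but a linear sum follows its brightest genes. Lyz2, which was not called, had a mean log2 level of 6.58 over the arrays and makes up most of the 20-marker sum. That sum therefore says little about the markers that were called. The part of macrophage genes in the Spp1 level was not tested.

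Other cell type markers moved too. Beside them, 11.7% of all genes in p53het and 13.7% in WT rats given Mitsui-7 were called in either direction. After NM-403 it was 1.52% in p53het and 3.13% in WT rats. The neutrophil list rose after NM-403, with 2 of 7 called in p53het rats and 4 of 7 in WT rats, and 0 after Mitsui-7. Its summed level was 2.69 to 7.37 after Mitsui-7, 9.61 to 20 after NM-403 and 3.68 to 7.26 in controls among p53het rats, and 1.8 to 4.39 after Mitsui-7, 9.21 to 24.3 after NM-403 and 2.84 to 8.13 in controls among WT rats. That order differs from that of Spp1. Endothelial markers fell after Mitsui-7, 5 of 6 in p53het and 4 of 6 in WT rats, with sums of 22.6 to 32.9 after Mitsui-7 and 39.7 to 46.9 in controls among p53het rats, and 21.2 to 31.1 after Mitsui-7 and 38.6 to 45.2 in controls among WT rats. After NM-403 0 of the 6 were called. Of the club and mucous list 3 of 5 rose in p53het and 4 of 5 in WT rats given Mitsui-7, of the mast cell list 3 of 6 in each (with Kit lower), and of the plasma cell list 4 of 6 in each. Plasma cell genes also rose after NM-403, 3 of 6 in each genotype. Alveolar type 1 markers had 3 of 6 lower after Mitsui-7 in each genotype and 2 in p53het and 1 in WT rats lower after NM-403. Fibroblast markers had 2 of 7 higher in p53het and 3 of 7 in WT rats given Mitsui-7, with 1 lower in each. Of the T cell list Cd4 rose after Mitsui-7 in both genotypes and Cd8a fell in p53het rats, and of the NK list Prf1 fell in p53het rats and Klrk1 rose in WT rats. These T cell and NK calls rest on few genes and are not read as a change of those cells. Smooth muscle and alveolar type 2 lists had 0 of 5 and 0 of 6 called, and the lung list had Cldn5 lower in p53het rats given Mitsui-7. Elane, Muc5ac and Mcpt1, defining genes of neutrophils, mucous cells and mast cells, did not pass the filter. The part of these shifts in the Spp1 result was not tested.

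Spp1 is a classical product of osteoclasts and osteoblasts, and some genes of these cells were called. The share of all genes called in either direction was 11.7% in p53het and 13.7% in WT rats given Mitsui-7. After NM-403 it was 1.52% in p53het and 3.13% in WT rats. Of 11 measured osteoclast genes, 4 rose in p53het rats given Mitsui-7 (Ctsk, Mmp9, Atp6v0d2 and Tcirg1) and 6 in WT rats, with 0 in p53het and 4 in WT rats given NM-403. Ctsk and Atp6v0d2 were already counted in the list described with Spp1 in macrophages, and Mmp9 among the processing genes. The osteoclast counts are therefore not those of a separate set of genes. Atp6v0d2 and Tcirg1 are subunits of the proton pump, and Tcirg1 rose by 0.66 in p53het and 0.70 in WT rats given Mitsui-7. In p53het rats the call of Atp6v0d2 (adjusted p = 0.0392) was lost in 8 of 12 fits without 1 array, that of Tcirg1 when all probes were averaged (0.0598) and that of Mmp9 under normexp background correction (0.359). Both WT counts hold Oscar, well above background on 0 control, 2 Mitsui-7 and 3 NM-403 arrays of WT rats. Its bounds were 1.01-fold for Mitsui-7 and 1.28-fold for NM-403, and both calls were lost under normexp background correction. In WT rats given NM-403 the calls of Atp6v0d2 and Ctsk were lost in some fits without 1 array. Acp5 (TRAP), Dcstamp and Clcn7 were not called, Tnfsf11 (RANKL) and Calcr did not pass the filter, and Nfatc1 fell by 0.31 in WT rats given Mitsui-7. Of 14 bone and mineral genes, Col1a2 rose by 0.38 in p53het and 0.40 in WT rats given Mitsui-7 (adjusted p = 0.0036 and 0.0017), Phex fell by 0.82 in p53het rats, Runx2 and Col1a1 (0.87) rose in WT rats, and 0 were called after NM-403. Runx2 was also counted among the regulators. The bone and mineral calls are few beside the share over all genes and are not read as a change of bone genes. The call of Phex (adjusted p = 0.0381) was lost in 8 of 12 fits without 1 array and under normexp background correction (0.788), and that of Col1a1 (0.0312) in 5 of 12 fits. Bglap (osteocalcin), Sp7 and Alpl were called in no comparison with control.

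Matricellular proteins, matrix proteins that signal to cells as osteopontin does, moved both ways. Of 17 measured, 4 rose and 4 fell after Mitsui-7 in each genotype. Among all genes, 11.7% in p53het and 13.7% in WT rats given Mitsui-7 were called in either direction. Fn1, which rose in each genotype, is also a member of the macrophage list above. Thbs2 (thrombospondin 2) rose by 2.16 in p53het and 2.29 in WT rats given Mitsui-7, with no overlap with controls, and by 0.88 in WT rats given NM-403. Tnn (tenascin N) rose by 2.26 in p53het and 2.72 in WT rats given Mitsui-7 and by 2.45 in p53het and 2.89 in WT rats given NM-403, and its differences between the nanotubes were -0.19 in p53het and -0.17 in WT rats, not called. Tgfbi rose by 0.75 in p53het and 0.76 in WT rats given Mitsui-7. After Mitsui-7 Spon2 fell by 1.18 in p53het and 0.99 in WT rats, Vtn (vitronectin) by 0.76 in p53het and 0.85 in WT rats, Spon1 by 0.42 in p53het rats and Ecm1 by 0.79 in WT rats. The call of Spon1 (adjusted p = 0.0229) was lost in 3 of 12 fits without 1 array and when arrays were centred on their medians. Sparc, Postn, Thbs1, Ccn1 and Ccn2 were called in no comparison with control.

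Cytokines tied to osteopontin in T cell responses were mostly dim. Of 12 Th1 and Th17 genes, 7 were measured, and Ifng, Il17a, Il6, Il2 and Il12a did not pass the filter. Il12b, a subunit of interleukins 12 and 23, rose by 2.10 in WT rats given Mitsui-7 (adjusted p = 0.0006) and by 1.54 in WT rats given NM-403 (lost in 7 of 12 fits without 1 array), and was well above background on 2 of 6 WT control arrays. In p53het rats Il12b differed by 0.53 after Mitsui-7 and 0.68 after NM-403 and was not called. The genotype interaction of Il12b was not called. With 1 of 7 genes called in WT rats given Mitsui-7, this list lay near the 13.7% of all genes called there.

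Epithelial injury genes were compared because injured epithelium also makes osteopontin. Of 12, 4 rose in p53het rats and 3 in WT rats given Mitsui-7, and 3 in p53het and 2 in WT rats given NM-403. Among all genes, 5.16% in p53het and 8.95% in WT rats given Mitsui-7 were called higher. After NM-403 it was 1.28% in p53het and 2.28% in WT rats. Krt17, a keratin of injured epithelium, was not well above background on any control or NM-403 array and was at least 3.05-fold higher in p53het and at least 3.93-fold higher in WT rats given Mitsui-7. Cldn4, a tight junction protein, rose by 1.75 in p53het and 1.72 in WT rats given Mitsui-7 and by 0.74 in p53het rats given NM-403, and Slpi, an antiprotease, rose by 1.02 in p53het and 1.16 in WT rats given Mitsui-7. Lcn2, the neutrophil and epithelial lipocalin, rose by 1.61 in p53het and 1.52 in WT rats given NM-403 (adjusted p = 0.0018 and 0.0013) and differed by 0.58 in p53het and 0.21 in WT rats given Mitsui-7. Muc1 rose by 0.63 in p53het and 0.59 in WT rats given NM-403 and by 0.40 in p53het rats given Mitsui-7. The p53het call of Muc1 after Mitsui-7 (adjusted p = 0.0393) was lost in 8 of 12 fits without 1 array and that of Cldn4 after NM-403 (0.0249) in 6 of 11.

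Across the 35 arrays, the gene whose level ran closest to that of Spp1 among 15219 genes with a symbol was Mmp12 (Pearson r = 0.964, Spearman rho = 0.919). Bpifb1 (r = 0.948), Il1rn (0.946), Prss30 (0.942), Il24 (0.933), Vill (0.929), Rab7b (0.928), Tmprss9 (0.927), Slamf9 (0.926) and Foxn4 (0.923) followed, and 26 genes had r above 0.9. All 10 were called higher in the 4 comparisons with control, but in p53het rats given NM-403 the calls of Il24, Foxn4 and Tmprss9 were lost under normexp background correction (adjusted p = 0.35, 0.22 and up to 0.232), and that of Tmprss9 also when all probes were averaged. Il24, a cytokine of the interleukin 10 family, rose by 4.87 in p53het and 4.44 in WT rats given Mitsui-7 and by 1.88 in p53het and 2.22 in WT rats given NM-403, and Prss30, a serine protease, by 3.55 in p53het and 3.86 in WT rats given Mitsui-7 and by 1.92 in p53het and 1.83 in WT rats given NM-403. Il24 was well above background on 3 of 6 p53het and 4 of 6 WT control arrays, so its control values are weak. At the other end were Ihh (Indian hedgehog, r = -0.886), Ramp2, a receptor partner of endothelial cells (-0.88), and Afap1l1 (-0.876). The arrays fall into 3 exposures, so these coefficients describe that split first, and the arrays share slides and scaling. The 10 genes were picked for following Spp1 over that split. Their calls against control therefore follow from the pick and are given as a description.

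Within groups the likeness was smaller. When each array's deviation from its group mean was used, Mmp12 had r = 0.452 with Spp1 over the 35 arrays. Mmp12 had r = 0.916 in p53het controls and 0.926 in WT rats given Mitsui-7, and between -0.305 and 0.354 in the other 4 groups, each over 5 or 6 rats. The gene with the highest r of deviations was Itgax (CD11c), an integrin chain of dendritic cells and alveolar macrophages, at 0.723, and Gbp6, an interferon-induced guanylate-binding protein, followed at 0.719. Both were singled out after their values were seen. Without p53het control replicate 6 and WT control replicate 6, the arrays with the lowest Spp1, Itgax had r = 0.612.

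**Figure D5:**
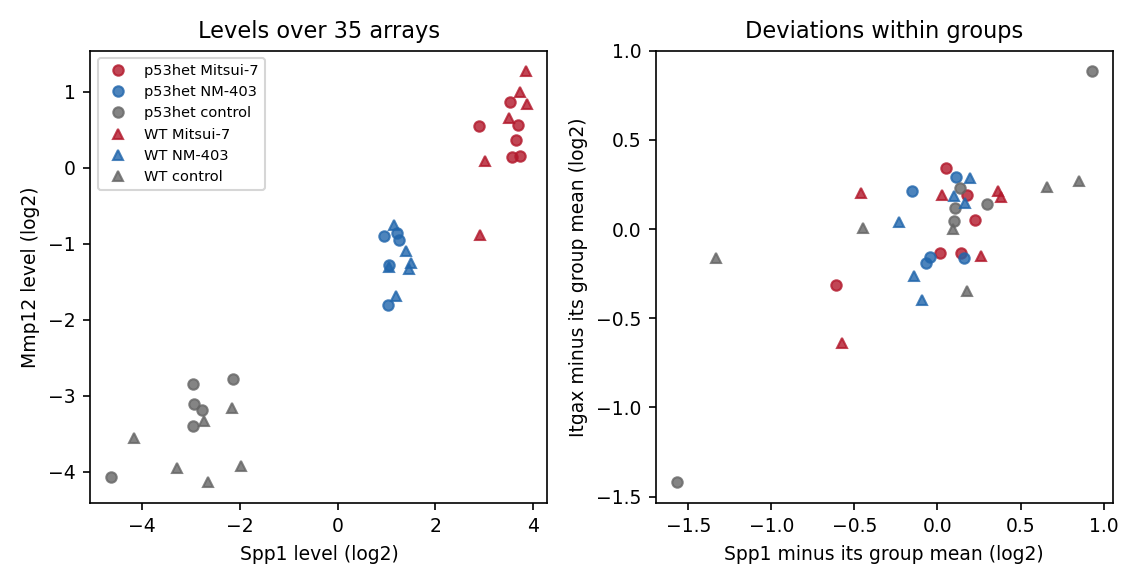
Left, Mmp12 level against Spp1 level (both log2 relative to the 75th percentile) over the 35 arrays, which form 3 sets by exposure. Right, deviations of Itgax and of Spp1 from their group means (log2), where the p53het control at the lower left is replicate 6. Circles are p53het rats and triangles WT rats, red Mitsui-7, blue NM-403 and grey control.

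Of the promoters of the 10 genes most like Spp1, all in the RefSeq table, 4 hold the Ets core AGGAAG (Prss30, Il24, Tmprss9 and Slamf9), 1 holds the AP-1 site TGANTCA (Mmp12) and 0 hold either RUNX core.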

How the data were processed

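Scanner files of 35 arrays were used, and per the labels each array holds RNA of 1 rat. Per the file headers the intensity values come from Agilent Feature Extraction 12.0.1.1, which the submitters' processing notes also name, and the processed signal is background-subtracted. The deposited value table of the authors holds log2 values of 11555 probes, centred per probe (probe medians 0, column medians -0.0827 to 0.0691). Within arrays its differences follow the scanner values with r of 0.994 to 0.999, and it was used as an alternative. No source used here says how the authors filtered and normalized it.

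From the scanner files, spots marked as outliers were set to missing (221 to 699 per array), control spots were left out, log2(gProcessedSignal) was averaged per probe and each array's 75th percentile subtracted. The brightest probe stood for a gene. A gene was kept if that probe exceeded background clearly on 5 or more arrays and had values for 3 or more arrays of every group, which left 24468 of 34766. With limma 3.58.1 in R 4.3.3, 1 model with a mean per group was fitted to all arrays, and p-values were Benjamini-Hochberg adjusted over all genes in each comparison. The replicates are separate rats. The number of arrays limits the precision, and arrays of 1 slide deviated together (mean r of deviations 0.222, against -0.0815 across slides), which the fit leaves out. The steps were tested on simulated data.

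Spp1 and the gene lists were chosen with earlier results of these data known. Named are all receptors, processing genes and SIBLING genes measured, up to 4 called members of each other pathway list with any of opposite sign, the 10 genes most and 3 least like Spp1, 4 measured neighbours on each side, and members of marker lists. A bound for a probe not above background sets the bright group's mean against, on each array of the dim group, the higher of that array's lowest signal among probes well above background and the probe's own signal. A check of the altered gene is not reported here. Sequences are from the scanner files and RefSeq (GRCr8). Alternatives were other scaling, background correction, filters, probe rules, slide and replicate blocks, the authors' values, and leaving out each array. The normexp background correction added an offset of 50 to the signal, which by construction shrinks log2 differences of dim probes. The part of this offset in the calls lost there was not tested.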

Additional observations from a re-analysis of the deposited data

Results flagged for a closer look

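In 96 groups of 5 or 6 arrays, over 16 genes, 8 arrays stood apart, meaning that the gap to the nearest array exceeded Dixon's 95% critical value as a share of the group's range. Chance alone is set to mark about 1 in 20 groups. Spp1 read 2.89 in p53het Mitsui-7 replicate 6, where the nearest array was at 3.52, and -4.62 in p53het control replicate 6, where the nearest was at -2.96 (log2 levels throughout).

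The same p53het control array was low for Itgax, at -5.70 against a nearest value of -4.23. Itgax was picked because its deviations ran closest to those of Spp1. Its low value on that array follows from the pick and is not a separate sign. The same p53het Mitsui-7 array was low for Fam20c, at -2.53 against -2.32. Itga9 was high in p53het Mitsui-7 replicate 3, at 0.73 against 0.50. Mmp7 was low in WT Mitsui-7 replicate 1, at -3.42 against -1.73. Thbd was low in WT Mitsui-7 replicate 4, at 2.06 against 2.60, and in WT control replicate 4, at 2.75 against 3.34. The causes were not tested.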

How the results depend on the processing

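Outside the within-slide values, all 240 recomputed Spp1 differences stayed within 1 SD between rats (0.532) of the reported value. That SD exceeds the genotype values, so this does not show that they are stable. Without 1 array, p53het against WT ran from -0.51 to 0.07 in controls, -0.08 to 0.16 after Mitsui-7 and -0.24 to -0.15 after NM-403. The interaction ran from -0.04 to 0.54 for Mitsui-7 and from -0.27 to 0.31 for NM-403. Under the 8 settings other than leaving out an array or keeping to a slide, Mitsui-7 against control gave 6.04 to 6.62 in p53het and 5.89 to 6.34 in WT rats, and NM-403 gave 3.66 to 4.22 in p53het and 3.74 to 4.12 in WT rats. Of 47 within-slide values 30 stayed within 1 SD. The others were, for Mitsui-7 against control, 7.11 on slide 1 (p53het) and 5.17 and 7.76 on slides 2 and 5 (WT), and for NM-403 in WT rats 3.43, 3.39 and 5.3 on slides 1, 2 and 5. For p53het against WT they were 0.67 and -0.63 (slides 2 and 4) after Mitsui-7 and -1.41, -0.8 and 1.39 (slides 1, 2 and 5) in controls. The genotype interaction was 1.47, -0.4 and -1.44 for Mitsui-7 (slides 2, 4 and 5) and 1.18, -0.58 and -1.48 for NM-403 (slides 1, 3 and 5). Each such value rests on 1 or 2 arrays per group.

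Counts of genes called moved more. For Mitsui-7 against control, NM-403 against control and the nanotubes against each other, p53het rats gave 2851, 372 and 331 genes and WT rats 3363, 767 and 850. The slide as a fixed block gave 5578, 942 and 498 in p53het and 5327, 1857 and 1578 in WT rats, and as a random block (correlation 0.353) 5174, 988 and 583 in p53het and 5276, 1876 and 1587 in WT rats. The authors' values, with 9803 genes tested, gave 1408, 163 and 135 in p53het and 1744, 491 and 315 in WT rats. Between the genotypes after Mitsui-7, 2 genes were called, against 17 with the fixed and 41 with the random slide block, both added after seeing the data. Normexp background correction gave 1836 and 184 for Mitsui-7 and NM-403 in p53het rats and 454 for Mitsui-7 against NM-403 in WT rats. Without 1 array the counts ran from 2065 to 3361, 231 to 604 and 226 to 394 in p53het rats and from 2244 to 3615, 447 to 937 and 577 to 855 in WT rats. The low of 231 came without NM-403 replicate 2 and the high of 604 without replicate 1 of that group, and 447 without WT NM-403 replicate 6.

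The replicate numbers did not pair the arrays (mean r of deviations 0.0297 over 85 same-numbered pairs, -0.574 to 0.692). With the number as a replicate block, 2944, 347 and 325 genes were called in p53het and 3462, 742 and 839 in WT rats.

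Of 263 calls of named genes, 197 held in every setting and 66 were lost in at least 1. Nfatc1 in WT rats given Mitsui-7 had 0.01 in place of -0.31 when all probes were averaged (adjusted p = 0.98). Without WT NM-403 replicate 6, 5 of the 28 Spp1-associated macrophage genes in place of 9 were called there. Of the 10 genes most like Spp1, 9 stayed with quantile normalization, 6 in the authors' values and 0 with deviations from group means or from slide and group means. Except where an alternative has fewer genes or arrays, the cause was not tested. A separate value for each Spp1 probe could not be had with 1 probe.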

Other observations

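The genes whose deviations from the group means ran closest to those of Spp1 were, after Itgax and Gbp6, Lgals5, a rat galectin (r = 0.599), Mvp, the major vault protein (0.591), and Anapc7, a subunit of the anaphase-promoting complex (0.58). With slide means removed as well, r was 0.737 for Itgax, 0.741 for Gbp6, 0.655 for Lgals5, 0.614 for Mvp and 0.621 for Anapc7. Itgax had r = 0.511 over the 23 exposed arrays and 0.803 over the 12 control arrays, while Mmp12 had 0.538 and 0.523. These genes were picked for these values, so the coefficients are a description over arrays that share slides and scaling.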
